A study of Arabidopsis thaliana with 24 samples.

Results

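WRKY22, STZ and GRX480 are 3 Arabidopsis genes known for rapid, short-lived responses to touch, wounding or defence signals. They were taken by name from the array's annotation, and each has 1 probe set: WRKY22 is AT4G01250, STZ, also called ZAT10, is AT1G27730, and GRX480, also called ROXY19, is AT1G28480. They are 3 of the 13286 genes that could be named on the array. Their transcript levels were followed in roots and shoots of Col-0 plants, 16 days old, at 0.5, 1, 3, 6, 12 and 24 h after bleomycin at 1.5 µg/ml and mitomycin at 22 µg/ml had been given together. Bleomycin breaks DNA strands and mitomycin crosslinks them. Each tissue and time had 2 Affymetrix ATH1 arrays, which gives 12 groups and 24 arrays, and every group carries both drugs. Untreated plants were not analysed here, so the earliest time, 0.5 h, served as the baseline within each tissue. Per the labels, the raft holding the plants was taken out while a stirrer mixed the drugs in. That handling, the drugs and, up to 12 h, the hour of day therefore cannot be told apart. The drugs were added after 3 h of a light period of 16 h. The samples fell 3.5, 4, 6, 9, 15 and 3 h after lights on, so those of 0.5 and 24 h lay near each other in hour of day. Whether both arrays of a group stem from independent cultures is not stated in the labels, so a p-value here reflects the spread between those arrays, which may be technical.

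Plants answer touch, wounding and microbial signals within minutes by switching on a wave of early regulators, many of which are switched off again soon after. WRKY22 is a transcription factor of the WRKY family that acts downstream of the MAP kinase cascade triggered by bacterial flagellin. STZ is a zinc finger protein that represses transcription, found as a gene that gives salt tolerance to yeast and induced by salt, cold, drought and wounding. GRX480 is a small glutaredoxin of the plant-specific CC type that binds TGA transcription factors. Salicylate induces it, and it can hold back jasmonate-responsive genes such as the defensin PDF1.2.

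The values are linear signal intensities that, as deposited, already share a common trimmed mean across arrays. Differences are on the log2(signal + 16) scale from limma with standard errors, and p-values are adjusted over all 22746 probe sets of a comparison. The tissue labels held: of 36 tests of leaf and root marker genes, 35 passed in the direction of the label. The median signal per array was 45.25 to 47.8 in roots and 36.0 to 39.9 in shoots. A pair of shoot arrays, array 1 of 12 h and array 2 of 24 h, lay nearest to the roots. Their mean log2 correlations with the 12 root arrays were 0.714 and 0.711, against 0.678 to 0.692 for the other 10 shoot arrays. The summed signal of 3 root markers was 795.7 and 486 on this pair, of which PYK10 alone gave 775 and 466. These sums lay within the 398.5 to 812 of the other 10 shoot arrays and below the 3014 to 3797 of root arrays. The summed signal of 3 photosynthesis markers was 9416 on array 1 of 12 h, below the 11660 to 19720 of the other 10 shoot arrays. The lowest of those 10 was the other 12 h array. On array 2 of 24 h the sum was 12840, within that range. Both sums lay above the 235 to 481 of root arrays. Results that rest on these arrays are given with and without them.

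**Figure D1:**
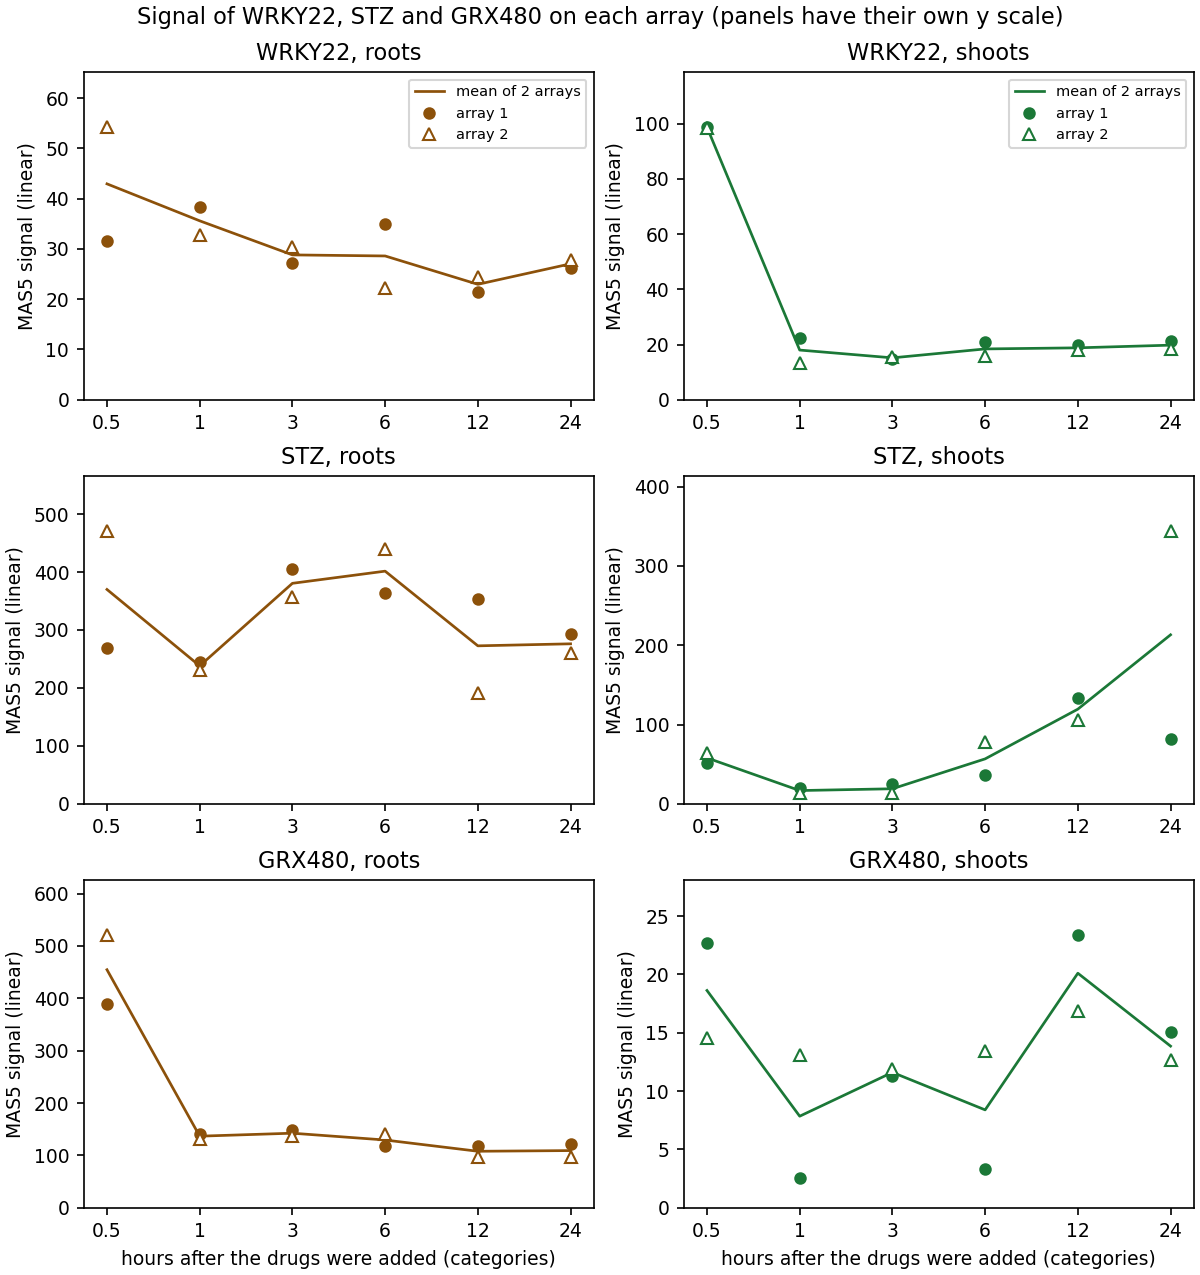
Signal of WRKY22, STZ and GRX480 (linear axis, each panel with its own scale) against hours after the drugs (equally spaced categories), roots on the left and shoots on the right, with a point for each of the 2 arrays and a line through their mean. GRX480 in roots and WRKY22 in shoots were high only at 0.5 h, whereas STZ in shoots was lowest at 1 and 3 h and highest at 12 and 24 h.

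GRX480 was a root transcript that was high at 0.5 h and down to about the same lower level from 1 h onward. In roots its signals on the 2 arrays were 388 and 521 at 0.5 h, 142 and 132 at 1 h, 148 and 137 at 3 h, 118 and 141 at 6 h, 118 and 97.9 at 12 h, and 122 and 96.4 at 24 h. Both arrays at 0.5 h stood above all 10 later root arrays. As a mean, the level was 136.8 ± 6.84 at 1 h and 454.6 ± 93.9 at 0.5 h (SD, n = 2 each), so 30.1% of the early level was left after another 0.5 h. At 24 h 24.0% was left.

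The fall of GRX480 in roots passed the test at all 5 later times. The log2 difference from 0.5 h was -1.61 ± 0.22 at 1 h (adjusted p = 0.00143), -1.56 at 3 h, -1.68 at 6 h, -1.91 at 12 h and -1.90 at 24 h (SE 0.22 each, adjusted p between 1.51e-05 and 0.0002 at these later times). At 1 h the change was the 6th largest fall among all 22746 probe sets, in a comparison where 0.47% of them passed. At 3, 6, 12 and 24 h, where 5.36%, 5.84%, 9.66% and 13.1% passed, its rank among falls lay between 27 and 34. The 3 genes were chosen with earlier results of these data known, so the ranks given here and below are a description. Without array 2 of 0.5 h, the brighter of the early pair, the 1 h difference was -1.40 with an adjusted p of 0.0524. With a pseudocount of 1 in place of 16 the differences at 1, 3 and 6 h were -1.71, -1.65 and -1.79 and did not pass (adjusted p = 0.351, 0.0842 and 0.0519).

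After the first hour nothing further was detected for GRX480 in roots. The difference between 24 h and 1 h was -0.29, with a 95% interval from -0.75 to 0.16. In bulk tissue, less RNA per cell and fewer cells that carry it cannot be told apart for this or any other level below.

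In shoots GRX480 stayed dim throughout. Its signals were 22.7 and 14.5 at 0.5 h, 2.60 and 13.1 at 1 h, 11.3 and 11.9 at 3 h, 3.34 and 13.5 at 6 h, 23.4 and 16.8 at 12 h, and 15.03 and 12.7 at 24 h. These values are about as large as the pseudocount, and no detection calls were at hand, so they could not be told from background. None of the 5 changes from 0.5 h passed in shoots, with log2 differences between -0.56 at 1 h and 0.065 at 12 h. For 1 h the 95% interval ran from -1.02 to -0.11 and for 12 h from -0.39 to 0.52. In limma 2 of the 5, those of 1 h and 6 h, had an unadjusted p below 0.05. The test of any change over time gave an adjusted p of 4.87e-05 in roots and 0.0937 in shoots, where 16.3% and 40.4% of probe sets passed.

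WRKY22 was highest at the first time sampled in the other organ. Its signals in shoots were 98.9 and 98.6 at 0.5 h, 22.5 and 13.5 at 1 h, 14.9 and 15.4 at 3 h, 20.8 and 16.0 at 6 h, 19.7 and 17.9 at 12 h, and 21.2 and 18.4 at 24 h. The 2 arrays at 0.5 h were almost equal, and both lay far above all 10 later shoot arrays. The mean was 18.0 ± 6.42 at 1 h and 98.7 ± 0.195 at 0.5 h (SD, n = 2 each), so the later signal was 18.2% of the early one, an upper bound on what was left because signals this dim could not be told from background.

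WRKY22 fell in shoots at all 5 later times. The log2 difference from 0.5 h was -1.77 ± 0.17 at 1 h (adjusted p = 1.51e-06), -1.88 at 3 h, -1.74 at 6 h, -1.72 at 12 h and -1.68 at 24 h, with the largest of these later adjusted p at 2.54e-06. In these comparisons 8.76%, 12.3%, 20.8%, 28.7% and 19% of all probe sets passed. The fall at 1 h was the 104th largest and that at 3 h the 62nd largest of 22746. Between 24 h and 1 h the difference was 0.086, with a 95% interval from -0.28 to 0.45. All 5 falls passed under each of the settings and left-out arrays tried.

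In roots WRKY22 was neither as high at 0.5 h nor as changed later. The signals were 31.6 and 54.3 at 0.5 h, 38.3 and 32.9 at 1 h, 27.2 and 30.4 at 3 h, 34.9 and 22.3 at 6 h, 21.4 and 24.5 at 12 h, and 26.3 and 27.8 at 24 h. Array 2 of 0.5 h was the highest, and array 1 of that time overlapped the 1 h and 6 h arrays. The log2 differences from 0.5 h were -0.17 at 1 h, -0.37 at 3 h, -0.39 at 6 h, -0.57 at 12 h and -0.43 at 24 h, and that of 12 h passed (adjusted p = 0.0431). This call was lost without the 2 shoot arrays nearest to the roots (adjusted p = 0.0557) and in 14 of 24 fits with 1 array left out, with values from -0.85 to -0.29. The test of any change over time did not pass in roots (adjusted p = 0.174).

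STZ followed another course in shoots, low at 1 and 3 h and high at 12 and 24 h. Its signals there were 51.6 and 64.2 at 0.5 h, 19.5 and 13.8 at 1 h, 24.6 and 13.3 at 3 h, 35.9 and 77.4 at 6 h, 133 and 106 at 12 h, and 82.1 and 344 at 24 h. Both arrays at 1 h and at 3 h lay below both at 0.5 h, and both at 12 h and at 24 h lay above them. The dim signal at 1 h was 28.8% of that at 0.5 h, again an upper bound, and the level at 12 h was 206% of it. The 2 arrays of 24 h differed by 4.19-fold, the widest gap of any group for this gene.

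The low values at 1 and 3 h did not pass with all arrays, with log2 differences from 0.5 h of -1.18 ± 0.43 at 1 h (adjusted p = 0.11) and -1.09 at 3 h (adjusted p = 0.116). The spread that sets these errors includes the wide 24 h pair. Without either array of 24 h the same differences passed, with adjusted p of 0.0161 at 1 h and 0.0193 at 3 h at most.

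The later rise of STZ in shoots passed when set against the low point. Against 1 h, a baseline chosen once the data were known, the log2 difference was 2.05 at 12 h (adjusted p = 0.00191) and 2.53 at 24 h (adjusted p = 0.000561), in comparisons where 21.7% and 16.6% of probe sets passed. At 6 h it was 1.10 (adjusted p = 0.0927), where 18.2% passed. Without the 2 shoot arrays nearest to the roots, 1 of each of these late times, the differences were 1.90 at 12 h and 1.59 at 24 h and both passed (adjusted p = 0.00148 and 0.00741).

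Against 0.5 h, STZ in shoots differed by 0.87 at 12 h (adjusted p = 0.146) and by 1.35 ± 0.43 at 24 h, which passed (adjusted p = 0.0355) and was the 161st largest rise of 22746. The 24 h call rests on 1 array. Without array 2 the difference was 0.41 (adjusted p = 0.524), and it was 2.29 without array 1. Without either array of 24 h the 12 h difference stayed at 0.87 and passed, a call gained with an unchanged difference and so no separate evidence. Without both shoot arrays nearest to the roots it was 0.72 and did not pass. At 24 h STZ read 293 and 259.5 in roots, below the 344 of array 2 in shoots, whereas GRX480 read 122 and 96.4 in roots against 12.7 on that array. The part of that array's likeness to roots in the STZ value was not tested.

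In roots STZ was bright at all times. Its signals were 269 and 471 at 0.5 h, 245 and 231 at 1 h, 405 and 356 at 3 h, 364 and 439 at 6 h, 354 and 191 at 12 h, and 293 and 259.5 at 24 h. Only the 1 h pair lay below both arrays of 0.5 h. None of the 5 changes from 0.5 h passed in limma, and none had an unadjusted p below 0.05. The differences lay between -0.55 at 1 h and 0.16 at 6 h, and the 95% interval at 1 h, from -1.46 to 0.36, does not show that the level was unchanged. The test of any change over time gave an adjusted p of 0.695 in roots and 0.000466 in shoots.

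**Figure D2:**
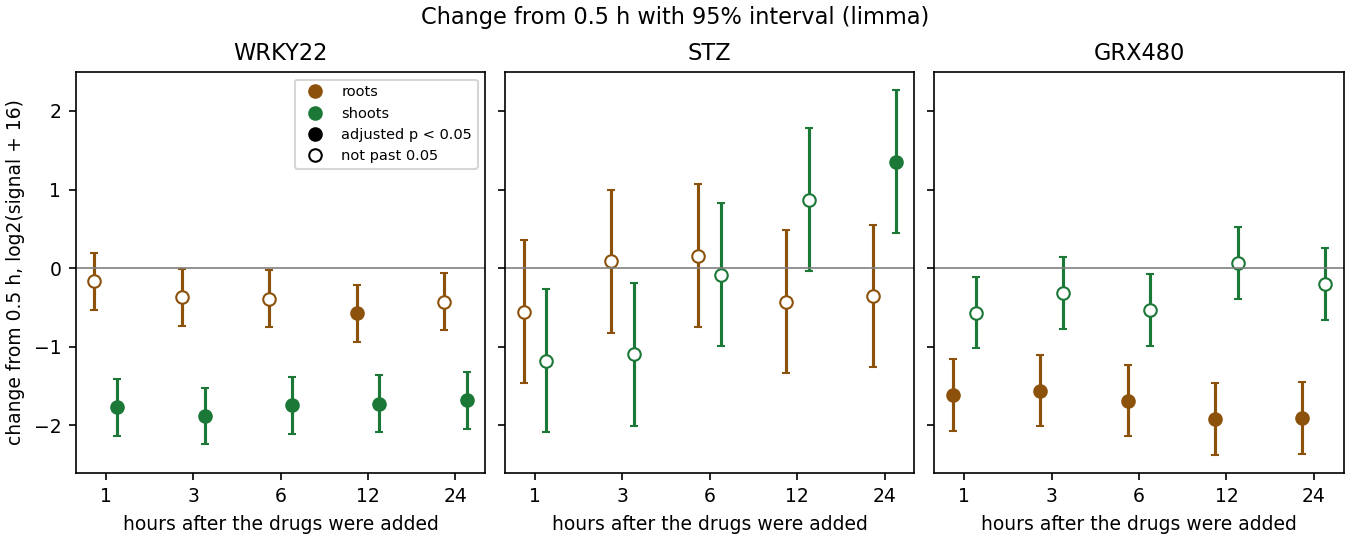
Log2 difference from 0.5 h at 1, 3, 6, 12 and 24 h in 1 panel per gene, with roots (left) and shoots (right) side by side at each time, 95% intervals from limma as bars, and filled points where the adjusted p was below 0.05. GRX480 in roots and WRKY22 in shoots stayed between -1.56 and -1.91 at every time, and STZ in shoots lay at -1.18 at 1 h and at 1.35 at 24 h.

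Between neighbouring times after 1 h, no step of the 3 genes passed in either organ. There were 24 such steps in limma, of which 3 had an unadjusted p below 0.05, all in shoots: STZ differed by 1.01 between 6 h and 3 h and by 0.95 between 12 h and 6 h, and GRX480 by 0.59 between 12 h and 6 h. Their adjusted p were 0.211, 0.178 and 0.086. Over the steps to 3, 6, 12 and 24 h, 9.81%, 6.61%, 13% and 16.6% of all probe sets passed in shoots, and 2.87%, 0.646%, 0.431% and 1.64% in roots. Without either array of 24 h in shoots both STZ steps passed with unchanged differences, which is no separate evidence. Without both shoot arrays nearest to the roots these steps were 1.01 and 0.80, and only the first passed. Among 18 tests against 1 h, 6 per gene, 3 passed: those of STZ at 12 and 24 h, and GRX480 in shoots at 12 h (0.63, adjusted p = 0.0467). In roots none of the 9 tests against 1 h passed in limma, where 2.89%, 6.29% and 8.97% of all probe sets did at 6, 12 and 24 h, and 1, that of WRKY22 at 12 h, had an unadjusted p below 0.05. The GRX480 call in shoots was lost without the arrays nearest to the roots (0.50, adjusted p = 0.254) and concerns signals near the pseudocount.

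The organ that held more of each transcript differed between the genes. GRX480 was higher in roots than in shoots at all 6 times, with log2 differences of 3.76 at 0.5 h, 2.71 at 1 h, 2.52 at 3 h, 2.60 at 6 h, 1.78 at 12 h and 2.06 at 24 h (SE 0.22, all passing). Since the shoot signals could not be told from background, the sizes of these differences depend on the pseudocount, and no fold and no trend over time is read from them. STZ was higher in roots by 2.34, 2.96, 3.52, 2.58 and 1.04 at 0.5, 1, 3, 6 and 12 h, all passing, and by 0.63 at 24 h (adjusted p = 0.229). Such differences were common, with 58.5%, 56.6%, 57.5%, 58.8%, 56% and 57% of all probe sets passing at 0.5, 1, 3, 6, 12 and 24 h.

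The STZ call at 12 h was narrow (adjusted p = 0.0488). It was lost under median centring (0.82) and in 17 of 24 fits with 1 array left out. At 24 h the roots-minus-shoots difference was 1.57 without array 2 of shoots and then passed.

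WRKY22 changed sides. At 0.5 h it was lower in roots, at 31.6 and 54.3 against 98.9 and 98.6 in shoots, a log2 difference of -0.99 (adjusted p = 7.63e-05). At 1 h and 3 h it was higher in roots by 0.61 and 0.52 (adjusted p = 0.00522 and 0.0144). At 6, 12 and 24 h the differences of 0.36, 0.16 and 0.27 did not pass. The median over all probe sets was itself 0.068 to 0.15 higher in roots. With each array centred on its median the 3 h difference was 0.31 and no longer passed, and that of 12 h was -0.059. After quantile normalization the differences at 1, 3 and 12 h were 0.41, 0.30 and -0.090, none passing.

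The change from 0.5 h was tested for a difference between organs. WRKY22 fell less in roots than in shoots at all 5 times, with a difference of 1.60 at 1 h, 1.51 at 3 h, 1.35 at 6 h, 1.15 at 12 h and 1.26 at 24 h (SE 0.24, adjusted p between 0.000593 and 0.00354). In roots it began at 31.6 and 54.3, against 98.9 and 98.6 in shoots, so less room was left there for a fall above background. These differences therefore also reflect the unlike levels at 0.5 h. For GRX480, whose shoot signals were too dim to show a fall of their own, the fitted differences in change were -1.05 at 1 h (adjusted p = 0.0794), -1.24 at 3 h, -1.16 at 6 h, -1.98 at 12 h and -1.70 at 24 h (SE 0.31, the last 4 passing). Among all probe sets 3.28%, 8.01%, 12%, 15.6% and 9.39% passed at 1, 3, 6, 12 and 24 h. The GRX480 differences did not pass with a pseudocount of 1, where they were -1.05, -0.52, -2.17 and -1.67 at 3, 6, 12 and 24 h (adjusted p between 0.0502 and 0.715), which gives the dim shoot signals more weight. Those of 3 h and 6 h were also each lost in 4 fits with 1 array left out.

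For STZ the difference in change between organs passed at no time in limma. It was 0.62 at 1 h, 1.18 at 3 h, 0.24 at 6 h, -1.30 at 12 h and -1.71 at 24 h. The last 2 had unadjusted p of 0.0475 and 0.0122, with adjusted p of 0.173 and 0.0887.

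Relatives and pathway genes were read from 10 lists, of which 241 genes were listed and 41 had a named probe set of their own. No member was measured of the TGA and NPR partners of GRX480 (12 listed) or of the darkness and senescence list (9 listed).

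The glutaredoxins were the best covered, with 18 of 26 measured beside GRX480; their calls fell in shoots. In roots none of the 18 passed in limma at any time, and between 0 and 2 had an unadjusted p below 0.05. Few probe sets passed there at all: 0.47%, 5.36%, 5.84%, 9.66% and 13.1% at 1, 3, 6, 12 and 24 h. In shoots at 1 h, 1 was higher, 8 were lower and 9 did not pass, with a median of -0.19 against -0.0072 over all probe sets, of which 4.16% were higher and 4.59% lower. At 24 h, 3 were higher, 10 lower and 5 did not pass, with a median of -0.63 against -0.046 over all probe sets, of which 8.85% were higher and 10.1% lower. Without the dimmest 30% of probe sets, the lower genes over all 10 lists numbered 4 in place of 10 at 1 h and 5 in place of 12 at 24 h.

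Among these glutaredoxins AT3G62950 was bright at 0.5 h and dim at 1 h in shoots. Its signals were 0.906 and 0.548 at 1 h, against 91.1 and 132.9 at 0.5 h. The fitted difference of -2.92 ± 0.15 is set by the pseudocount at such low signals and understates the change in signal. At 3 h both arrays were again at 64.7 and 45.8. At 12 h they were back at 0.477 and 2.52, and at 24 h the difference was -1.92. AT4G33040 went the other way, to 119.5 and 108 in shoots at 1 h, against 24.0 and 17.9 at 0.5 h, a difference of 1.82 ± 0.18, and of 1.88 at 24 h. At 3 h its difference was 0.53 and did not pass. AT4G15690 in shoots was lower than at 0.5 h by 1.32 at 1 h and by 1.52 at 24 h, but its difference at 3 h was 0.099 and did not pass. It lies among neighbouring loci of the same family, AT4G15660, AT4G15680 and AT4G15700, whose transcripts its probes may share. Each of these loci, AT4G15690 included, was counted among the lower genes in shoots at 1 h and at 24 h. Those counts may therefore not be of independent genes.

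**Figure D3:**
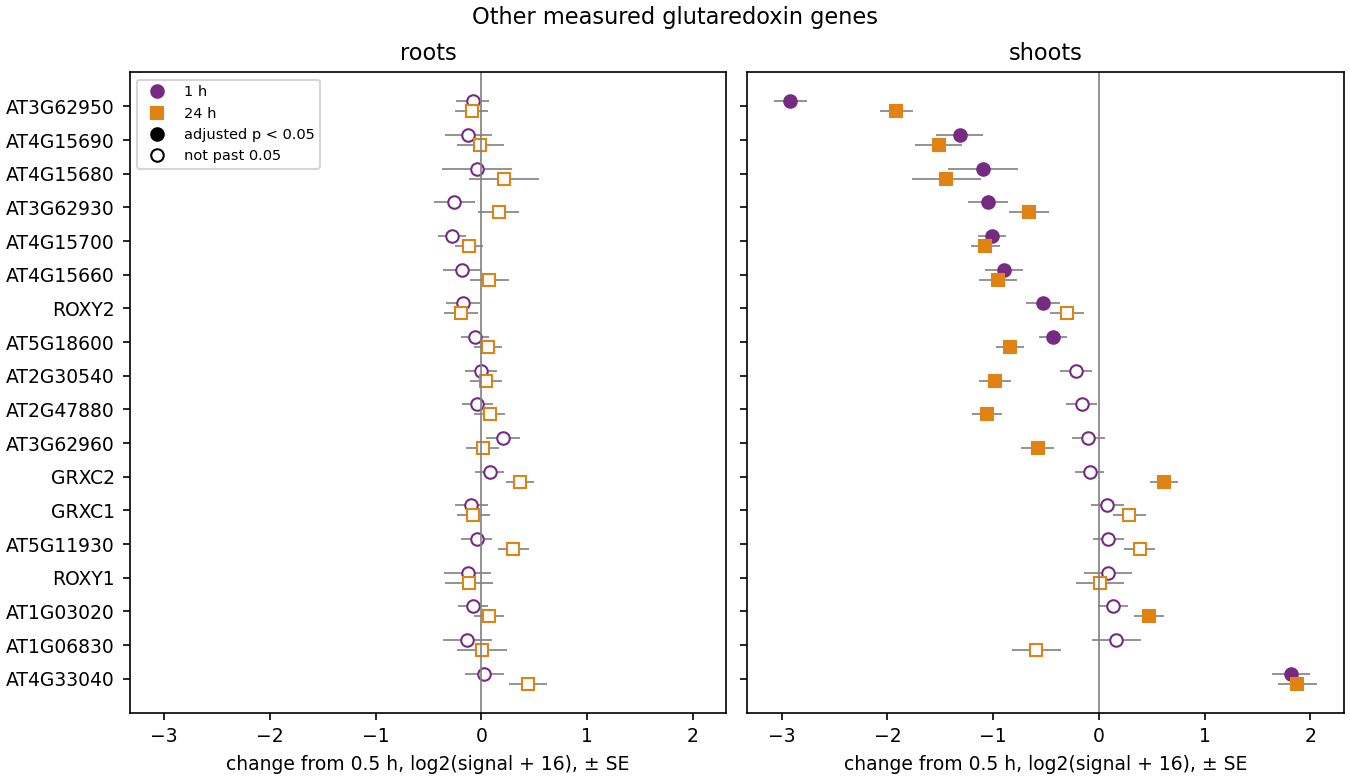
Log2 difference from 0.5 h at 1 h and 24 h for the 18 measured glutaredoxins other than GRX480, 1 gene per line, roots on the left and shoots on the right, with bars of 1 SE and filled points where the adjusted p was below 0.05. No point is filled in roots, where most genes lower in shoots at 1 h were dim already at 0.5 h. In shoots at 1 h 8 genes lay lower and 1 higher.

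Of the WRKY family 6 of 71 were measured beside WRKY22. In shoots 1 of them was lower at 1 h, where 8.76% of all probe sets passed. This was WRKY53, a regulator of leaf senescence. It read 8.89 and 5.85 against 32.4 and 32.8 at 0.5 h, a difference of -1.06 ± 0.24 (adjusted p = 0.0085). None of the 6 passed in shoots at 24 h or in roots at 1 h, with 0 and 1 at an unadjusted p below 0.05, in comparisons where 19% and 0.47% of all probe sets passed. In roots at 24 h, where 13.1% passed, WRKY20 and ZAP1, also called WRKY1, were higher by 0.40 and 0.36.

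Of the zinc finger genes listed with STZ 6 of 18 were measured. In shoots AT2G28200 was higher than at 0.5 h by 0.57 at 1 h and by 0.42 at 24 h. Against the same 0.5 h level it was lower by 0.63 at 3 h, by 1.17 at 6 h and by 0.55 at 12 h. Its signals were 22.3 and 18.4 at 6 h, against 67.8 and 64.1 at 0.5 h. In roots AT2G28710 was higher by 0.79 at 24 h. None of the others passed at 1 h or 24 h in either organ. Of all probe sets 8.76% passed in shoots and 0.47% in roots at 1 h, and 19% and 13.1% at 24 h.

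Signalling genes around the 3 regulators were thinly covered. Of 20 flagellin and MAP kinase genes 3 were measured, the kinase BIK1 and the ubiquitin ligases PUB22 and PUB23. None passed at 1 h in either organ, with none at an unadjusted p below 0.05. At that time 8.76% of all probe sets passed in shoots and 0.47% in roots. BIK1 fell by 0.42 in shoots at 24 h, where 19% passed. Of 23 jasmonate genes only the defensin PDF1.2 was measured. It passed in shoots at 12 h (1.29), where 28.7% of all probe sets passed. Its arrays there read 220.6 and 47.2, against 37.5 and 30.6 at 0.5 h, and the higher of them is the 12 h array nearest to the roots. In roots PDF1.2 lay between 5.90 and 14.9 on all 12 arrays. Of 15 salicylate and defence genes only SAG101, a partner of the defence regulator EDS1, was measured. It was higher in roots at 24 h by 1.01 and at 3 h by 1.33, where 13.1% and 5.36% of all probe sets passed. In shoots it passed at 12 h, with 143 and 41.1 against 29.4 and 24.9 at 0.5 h, again with the higher value on that same array.

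Among 36 rapid touch and wound genes 4 were measured, and in each organ 1 of them fell at 1 h, where 0.47% of all probe sets passed in roots and 8.76% in shoots. In shoots this was EXO, an extracellular protein of brassinosteroid-promoted growth, with 137 and 189 at 1 h, against 746 and 1324 at 0.5 h. Its difference was -2.52 ± 0.27 at 1 h and -1.17 at 24 h. In roots it was the calmodulin-like gene AT1G76640, with 18.1 and 10.6 at 1 h, against 41.7 and 134.4 at 0.5 h, a difference of -1.63 ± 0.28 (adjusted p = 0.00907). In roots at 24 h AT1G76640 fell by 2.43, and its calmodulin-like neighbour CML38 fell by 2.70. The call of AT1G76640 at 1 h was lost without array 2 of 0.5 h or array 2 of 1 h. Of 15 low-oxygen genes 2 were measured, AT3G10040 and AT4G10270, of which the first fell by 2.09 and the other fell by 1.87 in roots at 24 h. At that time 13.1% of all probe sets passed in roots.

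The genes most like each regulator were taken by correlation over all 24 arrays after each tissue's mean had been subtracted, among 1634 single-gene probe sets that varied. Arrays of a time share plants' age and hour of day, so these values are a description, and genes chosen for a like profile are given without a test. The 5 most like WRKY22 had r between 0.886 and 0.920: AT3G19680, AT1G11380, AT5G23130, AT4G37240 and GT2, a trihelix transcription factor. Over the 12 shoot arrays their r was 0.907 to 0.978. Over the 12 root arrays it ran from 0.400 for GT2 to 0.872 for AT4G37240. AT3G19680 read 81.9 and 140.9 in shoots at 1 h, against 680.3 and 757 at 0.5 h, a difference of -2.57. GT2 read 84.5 and 78.2 at 1 h, against 175 and 197 at 0.5 h, a difference of -1.05.

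The 5 most like GRX480 had r between 0.804 and 0.834: AT3G60490, AT3G53960, AT1G32970, AT1G76640 and AT4G27654. Their likeness came from roots, where r over 12 arrays was 0.898 to 0.958, against -0.45 to 0.466 over the 12 shoot arrays. AT3G53960 read 29.3 and 23.8 in roots at 1 h, against 74.7 and 87.9 at 0.5 h, a difference of -1.19. AT1G76640 is the touch-list gene described above.

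The 5 most like STZ had r between 0.801 and 0.873: AT5G52750, AT3G10930, AT1G72920, AT2G41410 and AT1G24140. Here the likeness came from shoots: r was -0.097 to 0.547 over the root arrays and 0.857 to 0.958 over the shoot arrays. AT5G52750 read 64.6 and 100.6 in shoots at 24 h, against 37.5 and 37.3 at 0.5 h, a difference of 0.86, after 18.2 and 24.1 at 1 h. AT3G10930 read 30.3 and 71.0 at 24 h, against 20.1 and 22.1 at 0.5 h. All 5 genes were higher on array 2 than on array 1 of 24 h in shoots, and higher on array 1 than on array 2 of 12 h, as STZ was. The choice of these genes therefore uses both shoot arrays nearest to the roots, among them the array on which the STZ value at 24 h rests.

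**Figure D4:**
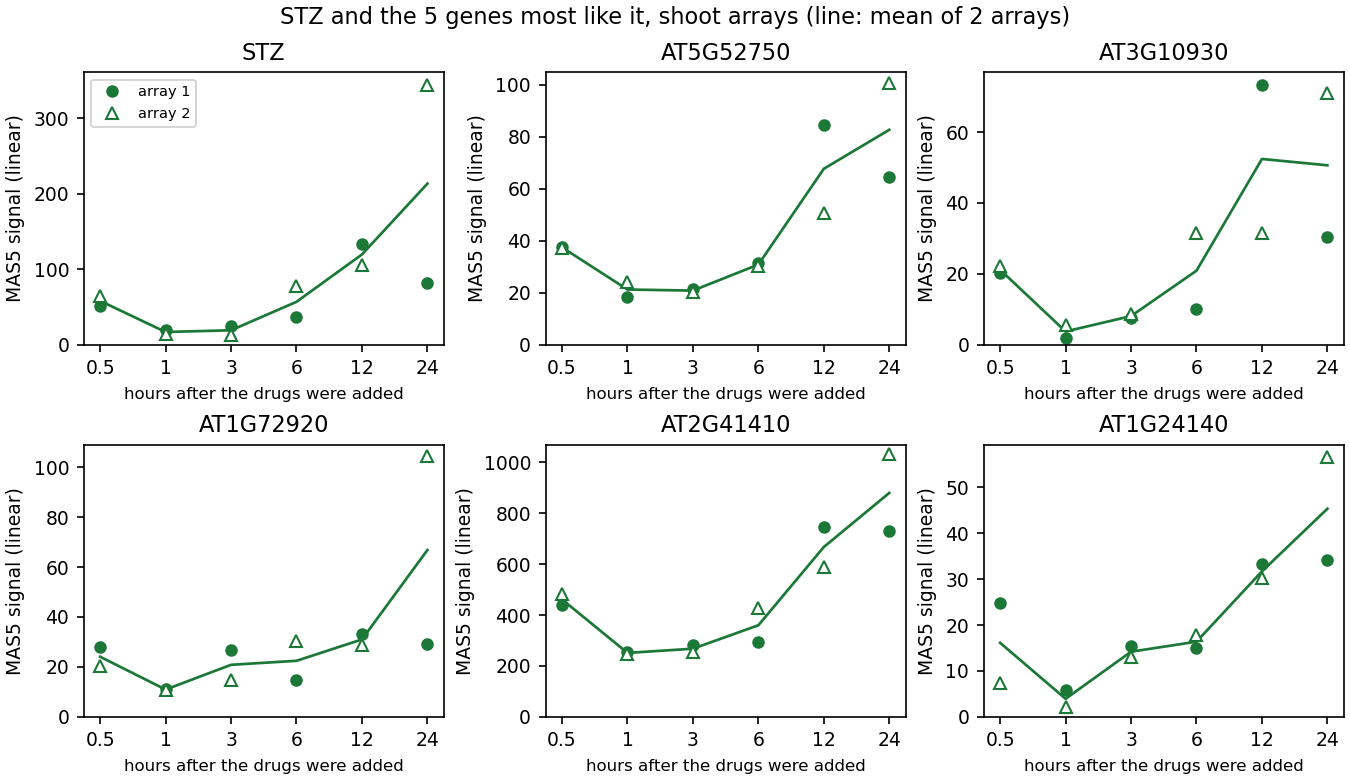
Signal of STZ and the 5 genes most like it on the 12 shoot arrays (linear axis, each panel with its own scale) against hours after the drugs, a point per array and a line through the mean of 2. STZ ranged from 13.3 at 3 h to 344 on array 2 of 24 h, and array 2 lay above array 1 at 24 h in all 6 panels.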

How the data were processed

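RNA was measured on 24 arrays, 2 per tissue and time. The deposited values are linear signal intensities whose trimmed mean is the same on every array, and the submitters' processing notes name MAS5. For its version and options: not given in the sources used here. No detection call entered the fits. No depth applies, and 24 arrays limit the precision.

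The array's 64 control probe sets were left out, which left 22746. Log2(signal + 16) was fitted with limma 3.58.1 (R 4.3.3), using 12 group means and variances with an intensity trend. Residual degrees of freedom were 12, and 4.91 were added by the prior. Within each comparison p-values were adjusted by the Benjamini and Hochberg method, and 0.05 was the threshold. The fit was tested on simulated data. Tables and figures were made in matplotlib 3.10.9, scipy 1.17.1, pandas 2.3.3 and numpy 2.4.6 under Python 3.11.15.

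Of the probe sets 13513 carried 1 gene in the array's annotation, 503 several, and 8730 were not listed. Names were matched to TAIR10.1 loci for 13436 probe sets of 13286 genes. The brightest probe set stood for a gene.

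The 3 genes, the 10 lists and the tests were chosen with earlier results of these data known. The tests against 1 h and the fit without the 2 shoot arrays nearest to the roots were chosen once the data were known. Named genes were the 3 regulators, the 5 probe sets most like each among those whose group means spanned at least 1 log2 unit in a tissue, and from each list the 3 largest passing changes at 1 h and 24 h per tissue. PDF1.2, PUB22 and PUB23, further glutaredoxin loci and values at other times were named after their values had been seen.

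Alternatives were pseudocounts of 1 and 64, median centring, quantile normalization, removal of the dimmest 30%, no trend, each tissue alone, the replicate number as a block, and each array left out in turn.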

Additional observations from a re-analysis of the deposited data

Results flagged for a closer look

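The change from 0.5 h differed between organs in 9 tests of that difference in limma. WRKY22 fell less in roots than in shoots, and the log2 difference in change, roots minus shoots, was 1.60 at 1 h, 1.51 at 3 h, 1.35 at 6 h, 1.15 at 12 h and 1.26 at 24 h. Its lower 0.5 h level in roots, 31.6 and 54.3 against 98.9 and 98.6 in shoots, left less room for a fall there. For GRX480 the fitted difference in change was -1.24 at 3 h, -1.16 at 6 h, -1.98 at 12 h and -1.70 at 24 h. Its shoot signals could not be told from background, so no shoot fall could be measured, and with a pseudocount of 1 these 4 differences did not pass (adjusted p between 0.0502 and 0.715). WRKY22 read 38.3 and 32.9 in roots at 1 h, against 22.5 and 13.5 in shoots, and GRX480 read 118 and 97.9 in roots at 12 h, against 23.4 and 16.8 in shoots.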

How the results depend on the processing

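Among called results of the 3 genes, 322 of the recomputed values under the other settings kept direction and call and 24 lost the call. With 1 array left out the numbers were 923 and 61. The falls of WRKY22 in shoots at all 5 times and of GRX480 in roots at 12 and 24 h were kept under all of them. The cause of the changes below was not tested. Fits on fewer arrays have fewer degrees of freedom. In fits without either 24 h shoot array, the gap within that pair also no longer enters the spread. STZ calls gained there with unchanged differences are therefore no separate evidence.

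Without both shoot arrays nearest to the roots, GRX480 in shoots was -0.067 at 12 h and 0.50 at 12 h against 1 h (call lost), and WRKY22 was -0.016 at 12 h against 6 h and -0.57 in roots at 12 h (call lost). STZ in shoots was -1.18 at 1 h, -1.09 at 3 h, 1.10 at 6 h against 1 h and 1.01 at 6 h against 3 h (all now passing), 0.41 at 24 h (call lost) and -0.31 at 24 h against 12 h, and its roots-minus-shoots difference at 24 h was 1.57 (now passing). With a pseudocount of 1, GRX480 in roots was -1.71, -1.65 and -1.79 at 1, 3 and 6 h and its organ difference in change was -1.05, -0.52, -2.17 and -1.67 at 3, 6, 12 and 24 h, all calls lost. STZ in shoots was then -1.75 at 1 h, -1.61 at 3 h and 1.63 at 6 h against 1 h (now passing), STZ in roots minus shoots at 12 h was 1.13 and WRKY22 in roots at 12 h was -0.83 (calls lost). With 64 the GRX480 organ difference at 1 h was -1.15 (now passing), and GRX480 in shoots at 12 h against 1 h was 0.23 (call lost). Without the dimmest 30% that organ difference was -1.05 and passed. Median centring gave 0.82 for STZ in roots minus shoots at 12 h and, for WRKY22, 0.31 at 3 h (calls lost) and -0.059 at 12 h. Quantile normalization gave 0.41, 0.30 (calls lost) and -0.090 for WRKY22 at 1, 3 and 12 h. Without a trend STZ in roots minus shoots at 12 h was 1.04 (call lost). With each tissue alone GRX480 in shoots at 12 h against 1 h was 0.63, STZ in shoots at 24 h 1.35 and WRKY22 in roots at 12 h -0.57, all calls lost.

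Whether the replicate numbers pair the samples is not stated in the labels. Over 66 pairs of groups, deviations of same-numbered arrays correlated between -0.19 and 0.20, with a median of -0.0071. Because these pairs pool times and organs, the range cannot tell whether roots and shoots of a time and number share plants. With the replicate block the values of GRX480 in shoots at 12 h against 1 h (0.63), STZ in roots minus shoots at 12 h (1.04) and WRKY22 in roots at 12 h (-0.57) did not pass, and no other call changed.

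Over the lists 4 genes were higher in shoots at 24 h, against 2 without the arrays nearest to the roots or with each tissue alone. In roots at 1 h 1 was lower, against 0 with a pseudocount of 1, without the dimmest 30% or with each tissue alone. In shoots 10 were lower at 1 h, against 6 with a pseudocount of 1 and 4 without the dimmest 30%, and 12 at 24 h, against 5 without the dimmest 30%. With 1 array left out the counts ranged from 1 to 4 (higher, roots 24 h), 1 to 2 (higher, shoots 1 h), 1 to 4 (higher, shoots 24 h), 0 to 1 (lower, roots 1 h), 1 to 6 (lower, roots 24 h), 5 to 10 (lower, shoots 1 h) and 7 to 12 (lower, shoots 24 h).

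With 1 array left out, called values ranged as follows where a call was lost. GRX480 in roots at 1 h lay between -1.81 and -1.40, its organ difference between -1.44 and -1.03 at 3 h and between -1.46 and -0.85 at 6 h, and its 12 h value against 1 h in shoots between 0.30 and 0.95. STZ in shoots at 24 h lay between 0.41 and 2.29, and in roots minus shoots at 12 h between 0.62 and 1.46. WRKY22 in roots at 12 h lay between -0.85 and -0.29, and in roots minus shoots between 0.42 and 0.81 at 1 h and between 0.47 and 0.57 at 3 h.

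Values that had not passed either passed or changed sign without some array. For GRX480 in shoots the ranges were -0.89 to -0.24 at 1 h, -0.83 to -0.22 at 6 h, -0.11 to 0.24 at 12 h, -0.077 to 0.57 from 1 to 3 h, -0.29 to 0.36 from 1 to 6 h, -0.51 to 0.093 from 3 to 6 h, 0.29 to 0.89 from 6 to 12 h and 0.56 to 0.95 for any change. In roots they were -0.19 to 0.038 from 1 to 6 h and -0.14 to 0.16 from 12 to 24 h, and the organ difference at 1 h was -1.37 to -0.72. For STZ in shoots they were -1.30 to -1.05 at 1 h, -1.33 to -0.86 at 3 h, -0.50 to 0.34 at 6 h, 0.72 to 1.02 at 12 h, -0.15 to 0.32 from 1 to 3 h, 0.67 to 1.52 from 1 to 6 h, 0.59 to 1.44 from 3 to 6 h, 0.53 to 1.38 from 6 to 12 h and -0.46 to 1.42 from 12 to 24 h. For STZ in roots they were -0.30 to 0.48 at 3 h, -0.23 to 0.55 at 6 h, -0.74 to 0.034 at 24 h, -0.30 to 0.54 from 1 to 12 h, -0.058 to 0.20 from 3 to 6 h and -0.34 to 0.49 from 12 to 24 h. The STZ organ difference in change was -0.18 to 0.66 at 6 h, -1.72 to -0.88 at 12 h and -2.64 to -0.77 at 24 h, and roots minus shoots at 24 h was -0.31 to 1.57. For WRKY22 in roots the ranges were -0.45 to 0.11 at 1 h, -0.71 to -0.15 at 24 h, -0.23 to 0.19 from 3 to 6 h, -0.39 to 0.025 from 6 to 12 h and 0.40 to 0.85 for any change. In shoots they were -0.31 to 0.082 from 1 to 3 h, -0.17 to 0.22 from 1 to 6 h, -0.15 to 0.24 from 1 to 12 h, -0.11 to 0.28 from 1 to 24 h, -0.081 to 0.12 from 6 to 12 h and -0.017 to 0.095 from 12 to 24 h. Roots minus shoots at 6 h was 0.16 to 0.57.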
